A study of Mus musculus with 7 samples.

Results

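Of the 29397 regions in the deposited table of H3K79me2 read counts, 647 lay on chromosomes 1 to 19, overlapped at least 1 annotated RefSeq gene, and overlapped no protein-coding gene. They are the stretches of chromatin where dimethylation of lysine 79 of histone H3 (H3K79me2) was recorded over non-coding genes alone: long non-coding RNA genes, microRNA genes and their hosts, and pseudogenes. The gene with the longest overlap stood for each region, which gave 430 genes. A further 36 such regions lay on sex chromosomes or unplaced sequence and were left out. The mark was measured by chromatin immunoprecipitation and sequencing in macrophages grown for 7 to 8 days from C57BL/6 mouse bone marrow with an M-CSF source (bone marrow-derived macrophages). One group of 3 libraries received 1 µM SGC0946, which blocks the histone methyltransferase DOT1L, during differentiation. The other 3 libraries received DMSO, the solvent, over the same time. The submitters call them biological replicates. Marrow of wild-type and knockout mice is mentioned in the growth protocol, and the labels do not tie these cultures to either. An input sample was not used here. All coordinates are on mm10, whose assembly is GRCm38.p6.

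H3K79me2 is laid down by DOT1L, which travels with elongating RNA polymerase II, so the mark covers the first part of actively transcribed genes whether or not their RNA is translated. Long non-coding RNAs are transcribed like messenger RNAs but act as RNA, as nuclear scaffolds, as hosts from which microRNAs or small nucleolar RNAs are cut, or through the act of transcription beside a neighbouring gene. MicroRNAs are cut from long primary transcripts and guide repression of messenger RNAs that pair with their seed, bases 2 to 8.

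The cultures carried the mark over macrophage genes. All 12 macrophage markers checked (Csf1r, Adgre1, Cd68, Spi1 and others) were overlapped by a region, and the weakest of them had 345 counts with DMSO. Of 24 markers of other cells 7 had a region, and 5 of these held under 10 counts. The exceptions were Zbtb46, a dendritic cell factor, with 1798 counts, and the platelet factor gene Pf4 with 90. Library totals were 16.7 to 19.5 M counts with DMSO and 2.95 to 3.13 M with SGC0946. Counts are therefore given in 2 ways: unscaled, and as a share of the library's counts. A fold change of share compares a region with the average fall of its library. No spike-in is named in the labels, which give only a target for the reads of each library. In unscaled counts, and in the percentage of DMSO counts kept, loss of mark and differences in depth or background therefore cannot be told apart. With bulk chromatin, fewer marked cells and less mark per cell cannot be told apart either.

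Several of the most heavily marked regions held microRNA genes. In all, 12 of the 647 overlapped a microRNA gene, and 41 mature microRNAs lay inside 11 of them. The RefSeq sequences below (GRCm38.p6) are those of the arms usually kept as guides, 5′ to 3′, with the seed in capitals. They are shown because regions at separate loci gave rise to microRNAs with the same seed and differed in the percentage of DMSO counts they kept. The let-7 family shared the seed GAGGUAG, with let-7a, let-7f and let-7d in the cluster on chromosome 13 and let-7i on chromosome 10:
let-7a-5p: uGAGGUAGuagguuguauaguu
let-7f-5p: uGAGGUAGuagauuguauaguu
let-7d-5p: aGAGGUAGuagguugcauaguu
let-7i-5p: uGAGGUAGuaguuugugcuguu
The pair cut from Dleu2 on chromosome 14 shared the seed AGCAGCA:
miR-15a-5p: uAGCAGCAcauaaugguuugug
miR-16-5p: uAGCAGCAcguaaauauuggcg
The cluster in Mir17hg held 4 seeds, that of miR-17 and miR-20a, that of miR-18a, that of miR-19a and miR-19b, and that of miR-92a:
miR-17-5p: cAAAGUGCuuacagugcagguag
miR-20a-5p: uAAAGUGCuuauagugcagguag
miR-18a-5p: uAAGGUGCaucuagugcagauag
miR-19a-3p: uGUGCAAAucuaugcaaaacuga
miR-19b-3p: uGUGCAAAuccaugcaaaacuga
miR-92a-3p: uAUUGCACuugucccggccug
The microRNAs of Mir22hg, of the miR-23a, miR-27a and miR-24-2 cluster and of Mir210 each had a seed of their own:
miR-22-3p: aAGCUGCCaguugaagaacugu
miR-23a-3p: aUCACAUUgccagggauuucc
miR-27a-3p: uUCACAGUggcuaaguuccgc
miR-24-3p: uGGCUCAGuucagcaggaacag
miR-210-3p: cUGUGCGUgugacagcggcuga
ChIP measures the chromatin of these genes and not the amount of any microRNA.

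The mark covered 1364 kb in the set. Regions were mostly short, with a median of 641 bp, and 278 of them (43.0%) had the minimum length of 500 bp. Long non-coding RNA genes led 554 regions, transcribed pseudogenes 42, other pseudogenes 26, genes of the class misc_RNA 15, microRNA genes 7, a snoRNA gene 1 and genes of other classes 2. The counts were concentrated. With DMSO the 3 strongest regions, in Lncpint, Dleu2 and Morrbid, held 26.5% of all counts in the set and the 20 strongest 59.7%. Provisional gene models (names beginning Gm or LOC, or ending Rik) led 456 of the regions, but those were weaker, with a median of 17.3 counts against 43.0 for the 191 led by genes with other names.

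**Figure D1:**
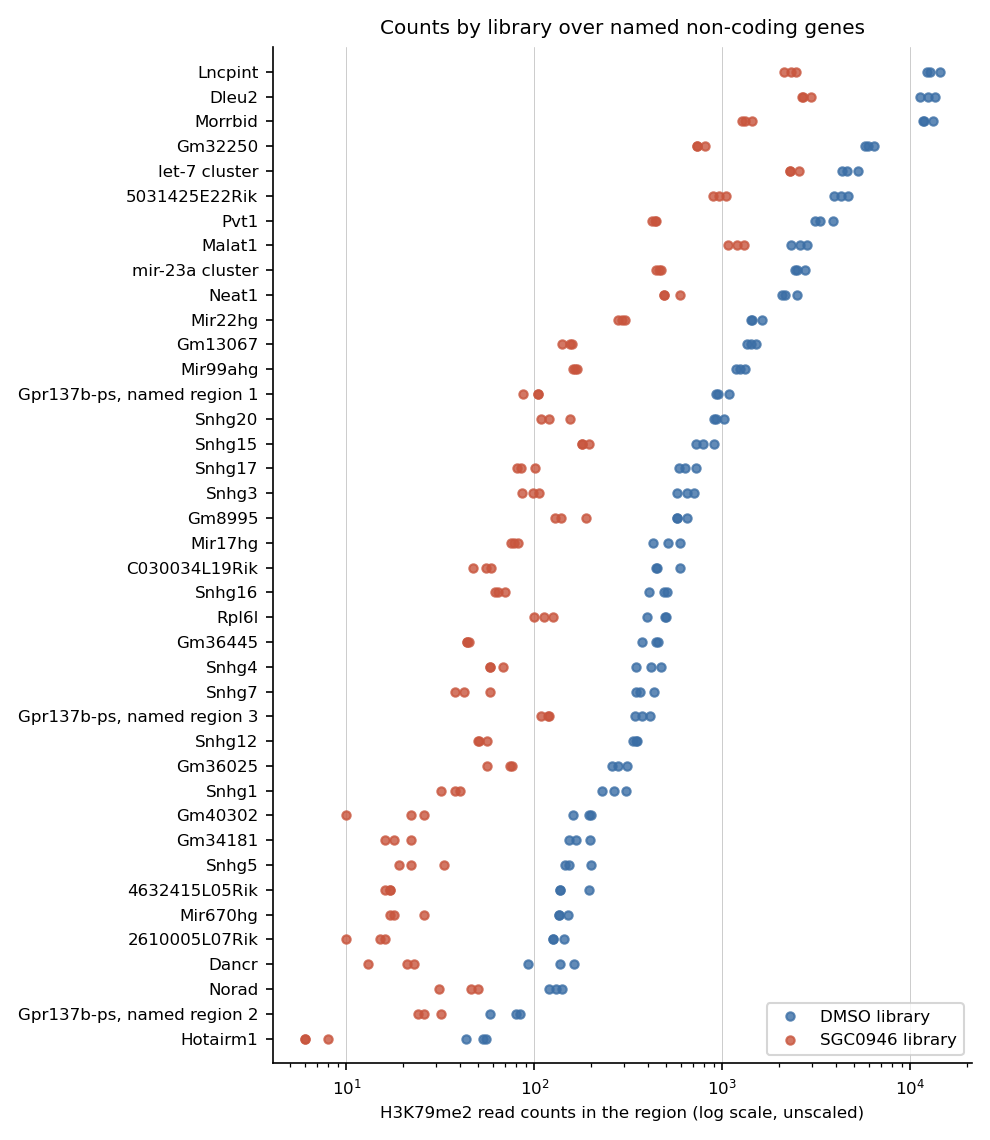
Read counts (log axis, unscaled) in each of the 3 DMSO libraries (blue) and 3 SGC0946 libraries (red) over the named regions with at least 50 DMSO counts. In every region drawn the 3 SGC0946 points lie to the left of the 3 DMSO points. The gap is narrowest for the let-7 cluster, Malat1, Norad and a pair of regions of Gpr137b-ps.

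On unscaled counts almost every region that could be tested fell with SGC0946. The set as a whole kept 18% of its DMSO counts, from 142320 ± 12459 to 25591 ± 1432 counts (SD, n = 3). Of 429 regions tested 425 fell, 1 rose and 3 were not called (edgeR quasi-likelihood test, adjusted p under 0.05). Across the full table, 99.7% of tested regions fell and 0.0201% rose. The region that rose, 647 bp in the gene model Gm34259 on chromosome 17, had 18, 4 and 15 counts with DMSO and 21, 22 and 32 with SGC0946 (adjusted p = 0.00228, lost without DMSO replicate 2). The 3 that were not called were likewise small, in Mir5615-1, Gm34346 and Gm26510. The other 218 regions held too few counts to be tested. They were not all falls: the mean was higher with SGC0946 in 145 of the 647 regions, and 1 of these was tested. The filter on counts thus left out most regions with a higher mean, and the near absence of rises is partly its result. Without it, 16 regions rose and 480 fell (edgeR quasi-likelihood test, adjusted p under 0.05).

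As shares of the library, equal numbers of these regions rose and fell. Of 425 tested regions 53 rose and 53 fell, against 6.16% and 23.3% of all tested regions (edgeR quasi-likelihood test on library totals). The median log2 change was 0.04, beside -0.09 over all tested regions. This balance depended on which regions were counted: 29 of the 53 rises were 500 bp regions, none of which fell. The count filter works on shares, and the DMSO libraries were larger, so a region needed more counts to pass there. Gm31639, with means of 0.333 counts with DMSO and 6.00 with SGC0946, was tested and called higher. Gm15429, with 13.3 and 1.00, was not tested. Weak rises could pass through SGC0946 libraries alone, so no conclusion is drawn from the calls at 500 bp. When weakly marked regions (mean under 50 counts) were set aside, 17 of the 156 left rose and 51 fell, against 7.00% and 48.6% of all regions that strongly marked. That is 10.9% and 32.7% of the 156. The balance also depended on the scaling, the count filter, the test and the libraries used. Rises made up 50.0% of calls on library totals. They made up 66.3% under TMM scaling, 66.0% under the size factors of DESeq2 and 89.3% under its Wald test. The Wald test used the same size factors without the count filter of edgeR, with 647 regions tested against 444. They made up 77.7% when no count filter was applied, 23.6% when the fit was limited to regions of 50 counts or more, and 4.61% when libraries were scaled to the sparsest 25% of regions (sparse scaling). Between 30.1% and 31.0% of calls were rises without 1 of the DMSO libraries, and between 64.1% and 75.3% without 1 of the SGC0946 libraries.

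The share kept varied with the length of the region. Non-coding regions of 500 bp had a median of 6.17 counts with DMSO and 4.33 with SGC0946, and their summed SGC0946 counts were 54.5% of the DMSO sum, against 24.5% for 7016 regions of that length over coding genes and 81.8% for 810 outside all genes. The regions of this length in the set were also split by the direction of their means, which is a split by the outcome. In 138 of the 278 the mean was higher with SGC0946, with medians of 1.33 counts with DMSO and 5.0 with SGC0946, none passed the filter of the unscaled test, and they held 56.9% of the SGC0946 counts of this length. The other 140 together kept 25.7%, which the split itself makes low. The 24.5% over coding genes and 81.8% outside genes come from regions not split in this way and are not comparable with it. Among the 369 longer regions 7 had a higher mean with SGC0946. The 278 regions of 500 bp took 1.56 to 1.65% of the set's counts in DMSO libraries and 4.04 to 5.23% in SGC0946 libraries. Longer non-coding regions of up to 2000 bp kept 18.7% against 17.7% over coding genes, those from there to 10000 bp 17.2% against 14.9%, and those over 10000 bp 17.3% against 17.5%. Of the 26 non-coding regions over 10000 bp, 18 (69.2%) fell and 4 (15.4%) rose in share, beside 71.7% and 15.3% of 3152 such regions over coding genes. Between 2000 and 10000 bp, 29.6% of 115 non-coding and 41.9% of 6898 coding regions fell. These shares are descriptions of regions within the same libraries and carry no test.

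**Figure D2:**
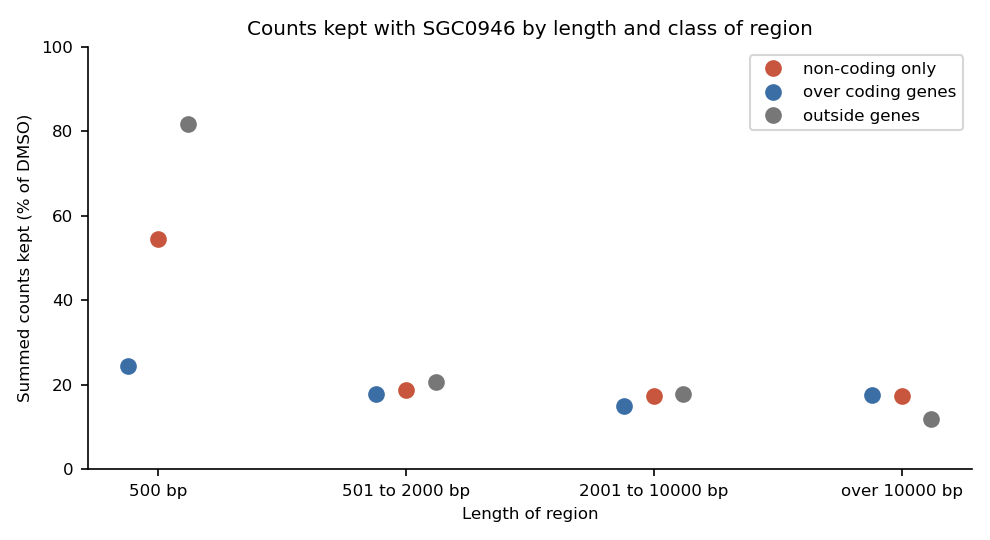
Summed SGC0946 counts as a percentage of summed DMSO counts, for regions over non-coding genes only (red), over coding genes (blue) and outside genes (grey), by length of region. The classes are spread from 24.5% to 81.8% at 500 bp and lie between 14.9% and 20.7% in the next 2 length classes.

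Set against coding genes within each library, the non-coding set took slightly more of the counts with SGC0946. For every 100 counts over coding genes it held 0.813, 0.836 and 0.823 counts in the DMSO libraries and 0.894, 0.869 and 0.848 in the SGC0946 libraries. All SGC0946 values lay above all DMSO values (0.824 ± 0.0113 against 0.870 ± 0.0227, SD, n = 3, exact 2-sided permutation p = 0.10, the lowest value possible with 3 libraries a group). Its percentage of all counts went from 0.802 ± 0.0108 to 0.844 ± 0.0215 (SD, n = 3, exact permutation p = 0.10). The direction of both depended on the let-7 cluster and Malat1. These 2 regions held 5.0 to 5.22% of the set's counts with DMSO and 13.3 to 14.3% with SGC0946. Without them, a choice made after their values were seen, the other 645 regions went from 0.782 ± 0.00988 to 0.749 ± 0.0200 per 100 coding counts, in the opposite direction (SD, n = 3). As these regions were left out for their values, this is a description with no test. The weakly marked regions also carried much of the difference: in the 156 regions with 50 or more counts on average, let-7 cluster and Malat1 included, the groups overlapped (difference 0.0103 against 0.0463 over all 647, exact permutation p = 0.400).

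**Figure D3:**
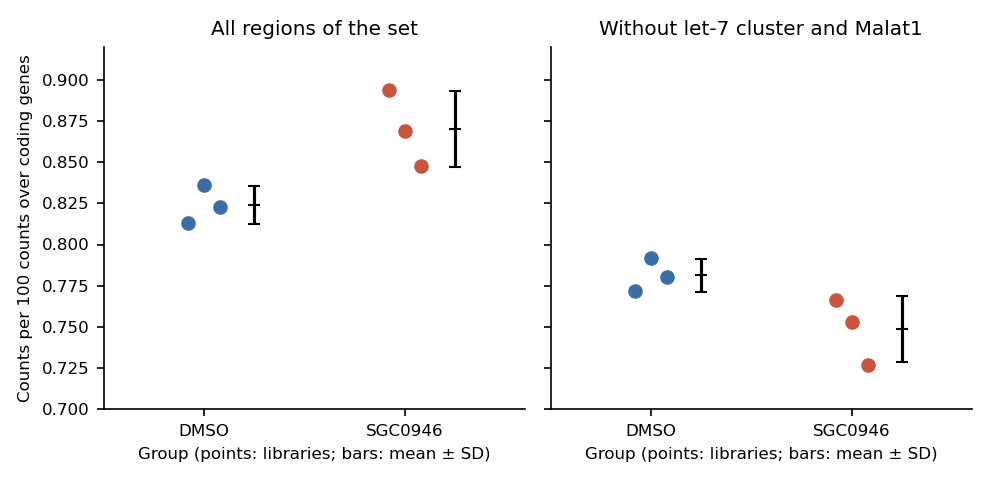
Counts in the non-coding set per 100 counts over coding genes in each library, with all 647 regions (left) and without the let-7 cluster and Malat1 (right). Points are libraries and bars the mean ± SD of 3; the axis starts at 0.7. SGC0946 libraries lie above DMSO libraries on the left and below them on the right.

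The let-7 cluster kept the most of the 156 regions with 50 or more counts on average. Its region of 12189 bp (chromosome 13, 48533991 to 48546179) holds the genes of let-7a-1, let-7f-1 and let-7d and lies 20498 bp from the nearest coding gene, Zfp169. It had 4305, 4625 and 5275 counts with DMSO and 2562, 2292 and 2283 with SGC0946. The SGC0946 libraries all lay well below the DMSO libraries, yet the region kept 50.2%, and its share rose by log2 1.56 ± 0.04 (SE, edgeR adjusted p = 5.5e-44). With DMSO it was also the densest of these regions, at 388 counts per kb. Its share rose under every scaling, test and left-out library tried.

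The let-7i gene, which encodes a microRNA with the same seed, did not share this. Its region (chromosome 10, 122980463 to 122986208) had 903, 1040 and 1132 counts with DMSO and 186, 145 and 145 with SGC0946. It kept 15.5%, and its change of share did not pass the test (log2 -0.14, edgeR adjusted p = 0.226). The let-7 cluster held 4.62 ± 0.163 times the counts of let-7i in DMSO libraries and 15.1 ± 1.16 times in SGC0946 libraries (SD, n = 3). This and the 5 other ratios between regions given below were chosen because the regions differed and are descriptions with no test.

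Among the other microRNA hosts, Dleu2, the host of miR-15a and miR-16-1 that is deleted in chronic lymphocytic leukaemia, had 11314, 12425 and 13574 counts with DMSO and 2963, 2666 and 2674 with SGC0946 in a region of 52695 bp (chromosome 14, 61630662 to 61683356). It kept 22.3%, and its share rose by log2 0.38 ± 0.04 (SE, edgeR adjusted p = 1.3e-13), but was at log2 -0.31 under sparse scaling. Mir22hg, the host of miR-22, was the second densest region at 327 counts per kb and kept 19.4% (1428, 1438 and 1619 counts against 292, 278 and 302). Its rise in share was small (log2 0.19, edgeR adjusted p = 0.0184) and was lost without DMSO replicate 3 (0.0510) or SGC0946 replicate 3 (0.189) and turned to log2 -0.50 under sparse scaling. The region of the miR-23a, miR-27a and miR-24-2 cluster (chromosome 8, 84200626 to 84210650), 292 bp from the coding gene Zswim4, kept 17.9% (log2 share 0.07, edgeR adjusted p = 0.383). Mir17hg, host of the miR-17 to miR-92 cluster with growth-promoting activity, kept 15.3% (512 ± 82.0 to 78.3 ± 3.51 counts, SD, n = 3, edgeR adjusted p = 0.345), and the region of the hypoxia-induced miR-210 kept 20.9% (edgeR adjusted p = 0.285). Of 11 tested regions with a microRNA gene 4 rose in share (the let-7 cluster, Dleu2, Mir22hg and Mir5615-1), 1 fell (Snhg20, which holds Mir6516) and 6 were not called, with a median log2 share of 0.19 beside -0.09 over all tested regions, of which 6.16% rose and 23.3% fell. The region of Mir5615-1 is 500 bp long, a length at which no conclusion is drawn from calls. Of the 9 regions with a microRNA gene and 50 or more counts on average, 3 rose, 1 fell and 5 were not called. Their median log2 share was 0.07, beside -0.30 over all regions that strongly marked, of which 7.00% rose and 48.6% fell. In the list of microRNA hosts by name, 5 of 11 genes found in the annotation had a region, of which 2 rose, 1 fell (Mir99ahg, 0.0507 with the DESeq2 Wald test) and 2 were not called, and Mir155hg, the host of the inflammatory miR-155, had none.

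Malat1 and Neat1, neighbours on chromosome 19 whose RNAs sit in nuclear speckles and build paraspeckles, both rose in share on library totals. Malat1 (5794792 to 5802810) had 2320, 2586 and 2817 counts with DMSO and 1307, 1070 and 1193 with SGC0946. It kept 46.2%, and its share rose by log2 1.44 ± 0.05 (SE, edgeR adjusted p = 5.0e-37) and rose under every alternative tried. Neat1 (5822484 to 5845632) went from 2074, 2140 and 2479 counts to 597, 487 and 490. It kept 23.5% (log2 share 0.46 ± 0.05 SE, edgeR adjusted p = 9.3e-11), and its change of share turned to log2 -0.23 under sparse scaling (0.266). The ratio of Malat1 to Neat1 counts was 1.12, 1.21 and 1.14 with DMSO and 2.19, 2.20 and 2.43 with SGC0946. Per kb, Malat1 carried 321 counts and Neat1 96.4 with DMSO. Miat, on the same list, had no region.

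**Figure D4:**
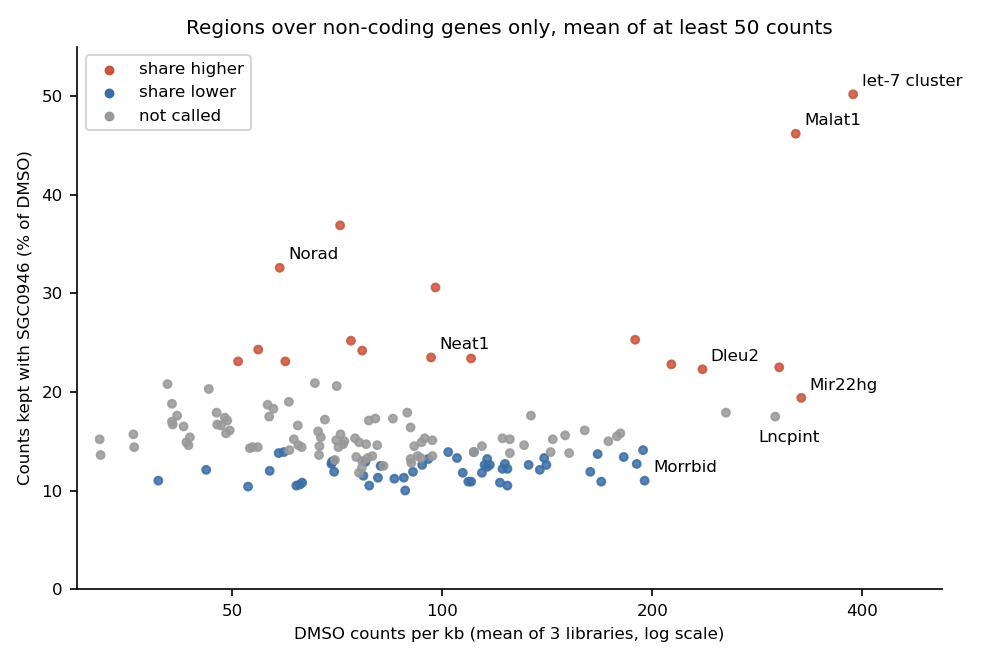
Percentage of DMSO counts kept with SGC0946 against DMSO counts per kb (log axis) for the 156 regions averaging 50 or more counts; red points rose and blue points fell in share, grey points were not called. The middle of the points lies between 12.7% and 16.7% (quartiles), with the let-7 cluster (50.2%) and Malat1 (46.2%) apart at the upper right.

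The start sites of Dleu2 and Malat1 both lay inside their regions, and their promoters differed in base composition. RefSeq promoters of GRCm38.p6 are shown from 250 bases before to 50 after the start, 5′ to 3′ on the strand of the gene, with each CG dinucleotide in capitals. They are shown because these genes differed in the percentage of DMSO counts they kept. In both genes the region ran mainly downstream: it reached 51711 bp past the start of Dleu2 and 983 bp before it, and 7880 bp past the start of Malat1 and 138 bp before it.
Dleu2, chr14:61682324-61682623, minus strand: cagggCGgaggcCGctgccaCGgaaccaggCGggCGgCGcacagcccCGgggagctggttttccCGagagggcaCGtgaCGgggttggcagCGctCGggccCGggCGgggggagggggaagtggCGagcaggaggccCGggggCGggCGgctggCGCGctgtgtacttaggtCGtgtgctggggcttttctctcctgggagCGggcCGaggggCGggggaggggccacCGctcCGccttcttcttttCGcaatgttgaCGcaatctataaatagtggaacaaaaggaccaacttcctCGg
Malat1, chr19:5802623-5802922, minus strand: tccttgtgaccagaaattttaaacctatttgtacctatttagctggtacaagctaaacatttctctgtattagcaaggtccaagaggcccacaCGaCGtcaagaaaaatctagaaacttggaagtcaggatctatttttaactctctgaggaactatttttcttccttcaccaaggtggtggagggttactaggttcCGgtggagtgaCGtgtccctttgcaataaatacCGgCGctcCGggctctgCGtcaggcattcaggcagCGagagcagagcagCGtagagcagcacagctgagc
The Dleu2 promoter held 29 CG dinucleotides and that of Malat1 10. Whether the number of CG and the percentage of counts kept go together was not tested. The motif CG, the same on both strands, was counted in the promoters of the table: 57 promoters of long non-coding RNA genes began inside a region of the set, with a median of 12 CG and at least 10 in 52.6%. For 674 that began inside the other regions of the table the median was also 12, with at least 10 in 55.9%. Of coding promoters 4829 began inside a region, with a median of 24 and at least 10 in 85.7%. The 10580 long non-coding RNA promoters that began in no region had a median of 4 and at least 10 in 16.6%. In all 32851 promoters 43.5% held at least 10. The count is a description of these letters and not of any factor's binding. Of the 57, 40 had more of the region downstream than upstream of the start.

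Morrbid, a long non-coding RNA gene that controls the survival of short-lived myeloid cells through its neighbour Bcl2l11, carried the longest region of the set, 62493 bp (chromosome 2, 128366596 to 128429088). Counts were 11640, 11771 and 13179 with DMSO and 1441, 1326 and 1267 with SGC0946. It kept 11.0%, and its share fell by log2 -0.63 ± 0.04 (SE, edgeR adjusted p = 3.7e-22). Dleu2 and Morrbid had nearly equal counts with DMSO (ratio 1.02 ± 0.0428) and a ratio of 2.06 ± 0.050 with SGC0946 (SD, n = 3). Morrbid and Hotairm1, a regulator of myeloid differentiation with 50.3 counts (edgeR adjusted p = 0.502), were the members of the immune list with a region here, and 12 of the 15 genes of that list found as non-coding in the annotation had none, among them the lipopolysaccharide-induced Ptgs2os2 and the liver X receptor target Mexis. Gm32250, the third longest region at 45076 bp (chromosome 1, 194976264 to 195021339), which also overlaps the start of the miRNA host A330023F24Rik, kept 12.6% (log2 share -0.44, edgeR adjusted p = 7.8e-13).

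Lncpint, a p53-induced long non-coding RNA gene, was split into 19 regions that did not behave alike. Its strongest region (chromosome 6, 31082019 to 31125759, 43741 bp) lay 92.7 to 136 kb downstream of the RefSeq 5′ end. The gene span is 125 kb, so part of this region lies past the annotated 3′ end. It had 12205, 12717 and 14410 counts with DMSO and 2316, 2116 and 2468 with SGC0946. It kept 17.5%, and its change of share did not pass the test (log2 0.04, edgeR adjusted p = 0.534), though under sparse scaling it fell (log2 -0.63, 0.00487). The region over the start (31209969 to 31221608) kept 10.9% (1840, 1899 and 2167 counts against 208, 224 and 210) and fell in share by log2 -0.65 ± 0.07 (SE, edgeR adjusted p = 4.1e-13). The strong downstream region held 6.66 ± 0.0330 times the counts of the start region with DMSO and 10.8 ± 1.19 times with SGC0946 (SD, n = 3). With DMSO it was also denser, at 300 counts per kb against 169. The genes Mir29b-1 and Mir29a, on the same strand, lie 18.9 and 19.3 kb beyond it.

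Pvt1, a long non-coding RNA gene beside the Myc oncogene, was also split into 19 regions, and most of its stronger regions fell in share. Its strongest region (chromosome 15, 62037831 to 62055902) had 3102, 3288 and 3890 counts with DMSO and 442, 438 and 424 with SGC0946, kept 12.7% and fell in share by log2 -0.43 (edgeR adjusted p = 4.0e-10). Of 14 tested regions 7 fell and none rose, where 23.3% of all tested regions fell and 48.6% of those with 50 or more counts on average. Its 9 regions averaging 50 or more counts kept between 11.3% and 17%. Mir99ahg, host of miR-99a and let-7c-1 further downstream, had 38 regions, the most of any gene. They kept 15.7% of their counts together, and of 33 tested 1 rose and 2 fell, beside 6.16% and 23.3% of all tested regions. Norad, which binds PUMILIO proteins and is linked to genome stability, had 119, 130 and 140 counts with DMSO and 50, 31 and 46 with SGC0946 in a region that also overlaps the gene model Gm14170 (chromosome 2, 156391141 to 156393358). It kept 32.6% and rose in share (log2 0.93 ± 0.17 SE, edgeR adjusted p = 5.5e-06), a call lost under sparse scaling (0.264). Counted by the strongest region of each gene, of 4 tested genes of the p53 and growth list 1 rose and 1 fell. The 2 not called were Lncpint and Tug1 (21.0 counts). Beside these stand 6.16% higher and 23.3% lower over all tested regions, and 7.00% and 48.6% over those with 50 or more counts on average. Over all its regions Lncpint had 4 that fell of 17 tested. Trp53cor1 had a region of 16.3 counts that was not tested on shares.

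**Figure D5:**
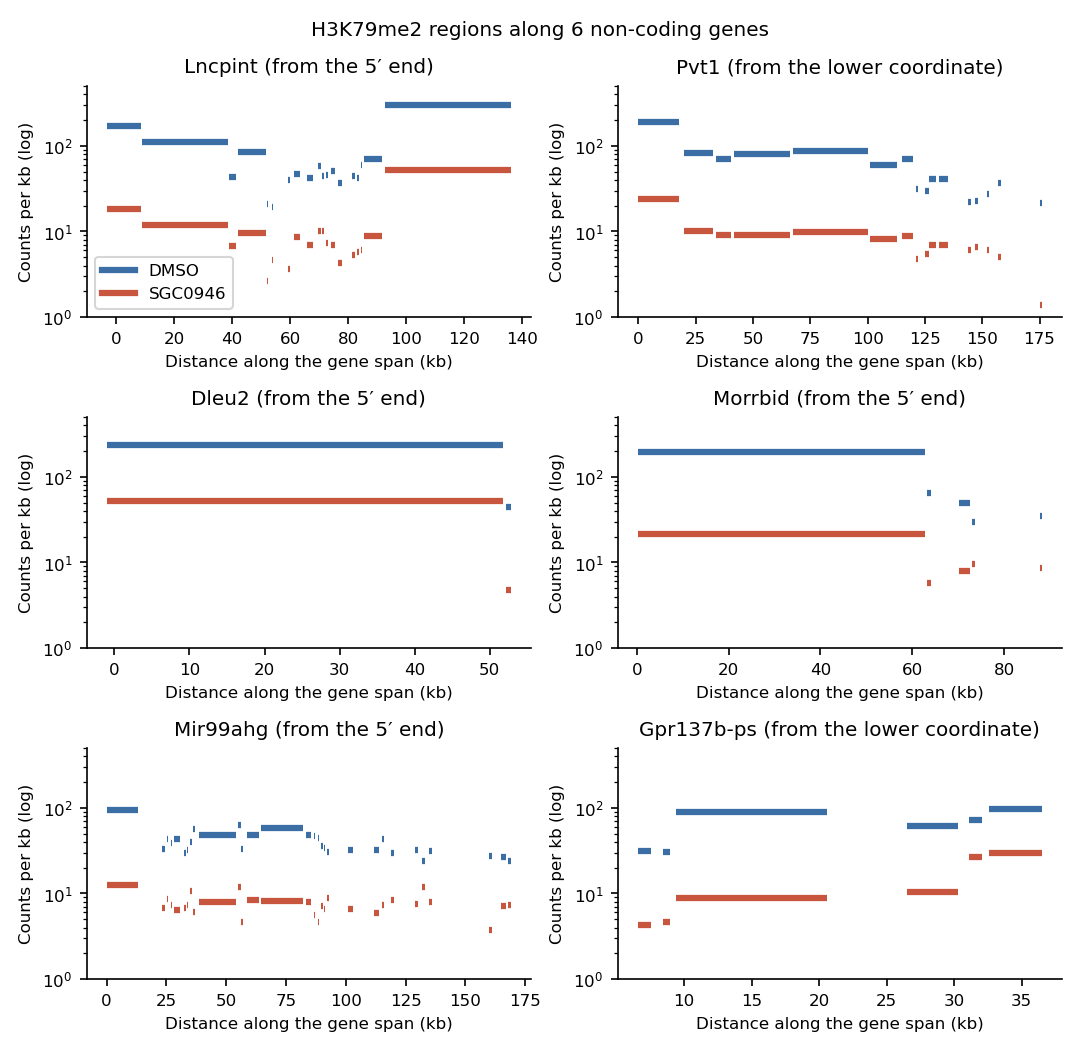
Mean counts per kb (log axis) with DMSO (blue) and SGC0946 (red) in every region of 6 genes, drawn at its distance along the gene span, from the 5′ end where the strand is in the promoter table and otherwise from the lower coordinate. In Lncpint the highest density lies at 92.7 to 136 kb, partly past the end of its 125 kb span. In Gpr137b-ps the gap between blue and red is narrower in the last 2 segments, which kept 36.9% and 30.6%.

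Small nucleolar RNAs guide modification of ribosomal RNA, and 11 of their host genes had a region in the set. In the strongest region of each, all SGC0946 counts lay below all DMSO counts. This was not particular to them, as 99.7% of all tested regions fell on unscaled counts. All 21 genes of the list were found in the annotation and marked, and 10 of them only in regions shared with a coding gene or off chromosomes 1 to 19. The 11 kept between 12.1% and 22.8%, with a median log2 share of -0.23 beside -0.09 over all tested regions. All 11 averaged 50 or more counts. Over regions that strongly marked the median was -0.30 in the whole table and -0.24 in the set, so the hosts were not lower than these. In share 1 rose, 3 fell and 7 were not called, beside 6.16% higher and 23.3% lower over all tested regions and 7.00% and 48.6% over those with 50 or more counts on average. Snhg15 rose: 726, 788 and 903 counts with DMSO became 178, 179 and 194, which is 22.8% (log2 share 0.42 ± 0.08 SE, edgeR adjusted p = 1.5e-05, but log2 -0.27 under sparse scaling). Snhg20 fell, from 906, 930 and 1014 counts to 154, 119 and 109 (13.4%, log2 share -0.35, edgeR adjusted p = 0.000942, but 0.161 with the DESeq2 Wald test). Snhg7 kept 12.1% (edgeR adjusted p = 0.00263, lost with the DESeq2 Wald test at 0.134 and without SGC0946 replicate 2 at 0.0614), and Snhg17 kept 13.7% (edgeR adjusted p = 0.0135, lost under TMM at 0.132, DESeq2 size factors at 0.159, the DESeq2 Wald test at 0.367, and without SGC0946 replicate 1 at 0.210 or 3 at 0.0501). The ratio of Snhg15 to Snhg20 went from 0.846 ± 0.0446 to 1.48 ± 0.313 (SD, n = 3). Snhg1, Snhg3, Snhg4, Snhg5, Snhg12, Snhg16 and Dancr kept between 13.8% and 15.2% and were not called on library totals with all libraries. Snhg16 was called lower without DMSO replicate 1 (0.0144) or SGC0946 replicate 3 (0.0399), Snhg1 without DMSO replicate 1 (0.0457), and all 7 under sparse scaling.

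Some pseudogenes showed contrasts within a single gene, and so did other genes. The 2 regions of 5031425E22Rik kept 11.8% (fell in share) and 22.5% (rose). The 2 regions led by Gm14170 kept 11.0% (fell) and 32.6% (rose, the region of Norad). Gpr137b-ps on chromosome 13, a transcribed relative of the lysosomal membrane protein gene Gpr137b, carried both the largest fall of share and some of the largest rises among the 64 regions that met the naming rule. Its region from 12623485 to 12634632 went from 926, 947 and 1086 counts to 104, 105 and 87 and kept 10.0% (log2 share -0.77 ± 0.09 SE, edgeR adjusted p = 7.0e-11). Its region from 12646685 to 12650530 went from 341, 375 and 412 counts to 118, 108 and 119 and kept 30.6% (log2 share 0.84 ± 0.10 SE, edgeR adjusted p = 2.6e-10). The second of these had 0.381 ± 0.0140 times the counts of the first with DMSO and 1.18 ± 0.174 times with SGC0946 (SD, n = 3). A smaller region between them (12645158 to 12646194) kept 36.9% (58, 80 and 84 counts against 24, 26 and 32). Under sparse scaling neither rise passed the test (0.407 and 0.0908). Reads of a pseudogene can be shared with its parent or with other copies, and no source used here says how such reads were counted, so these values are uncertain. The same holds for Gm8995, of the class misc_RNA, whose regions kept 13.9% (fell, edgeR adjusted p = 0.00146) and 25.3% (rose, edgeR adjusted p = 5.3e-07, but log2 -0.14 under sparse scaling), for the ribosomal protein pseudogene Rpl6l (24.2%, log2 share 0.50, but -0.20 under sparse scaling) and for the pseudogenes 2610005L07Rik (10.4%) and 4632415L05Rik (10.6%), whose falls were lost with the DESeq2 Wald test (0.171 and 0.175) and, for 2610005L07Rik, without SGC0946 replicate 1 (0.204).

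The remaining named extremes were gene models of unknown function. Gm36025, which lies 18413 bp from the cathepsin gene Ctsb, kept 24.3% (log2 share 0.50, edgeR adjusted p = 0.00178, but log2 -0.21 under sparse scaling). Gm13067 (1428 ± 73.7 to 151 ± 9.45 counts, SD, n = 3), Gm36445, Gm40302, C030034L19Rik and Gm34181 kept between 10.5% and 10.8% and fell in share by log2 -0.65 to -0.71. With the DESeq2 Wald test Gm40302 and Gm34181 did not pass (0.109 and 0.144), nor did Gm40302 without SGC0946 replicate 3 (0.185) or Gm34181 without SGC0946 replicate 1 (0.111). Among the 6 densest regions was also 5031425E22Rik, 88 bp from the coding gene Kmt2e, which kept 22.5% (log2 share 0.40, edgeR adjusted p = 4.0e-11, but log2 -0.28 under sparse scaling). In the lists of imprinted RNAs and small housekeeping RNAs, Airn had a region of 11.7 counts (edgeR adjusted p = 0.328), and none of the 9 housekeeping RNA genes, such as Rmrp, Rpph1 and Terc, had one.

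Most of the set lay away from coding genes: 468 of the regions were over 5 kb from the nearest one, 103 lay within 5 kb upstream of one, 42 within 5 kb downstream, and 34 beside genes whose strand is not in the promoter table. The distant regions kept 18.3% of their counts, the upstream ones 17.4% and the downstream ones 14.6%. Among distant regions 39 rose and 41 fell in share of 283 tested, among upstream ones 10 and 4 of 82, and among downstream ones 1 and 6 of 32, beside 6.16% higher and 23.3% lower over all tested regions. These calls include weak regions that could pass the filter through SGC0946 libraries alone. With 50 or more counts on average, 12 rose and 40 fell of 110 distant regions. Of 24 such upstream regions 3 rose and 3 fell, and of 14 downstream ones 1 rose and 6 fell. Over all regions that strongly marked, 7.00% rose and 48.6% fell. The difference between these positions was not tested.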

How the data were processed

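The 6 pull-down libraries came from 10 to 20 M macrophages each, crosslinked in 1% formaldehyde for 10 min, and were read as 50 bp single ends toward a target of 40 M, per the labels' protocols. The values deposited by the authors are whole-number counts of reads in each region, and their unequal library totals show no scaling. The submitters' processing notes name mm10, R 3.6.3, ChIPseeker 1.20.0, HOMER 4.11.1, bedtools 2.27.0 and HISAT2. The sources used here do not say how regions were called, whether samples were pooled for that, or what was done with duplicate and multiply mapping reads; each could change the counts.

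Regions (1-based coordinates) were overlapped with RefSeq gene spans of GRCm38.p6 with pandas 2.3.3 and numpy 2.4.6 (Python 3.11.15); the spans carry no exons, so exonic and intronic positions are not given, and strands came from the promoter table. Promoters of chromosome 18 were not analysed here. Some symbols known as coding, such as Trmt61b, are classed as non-coding in this annotation and were kept. Counts of all 29397 regions entered the quasi-likelihood test of edgeR 4.0.16 (R 4.3.3, filterByExpr, Benjamini-Hochberg over all regions tested, threshold 0.05), once on library totals without further normalization and once with equal library sizes (unscaled). Standard errors follow from each region's fold change and F statistic. Per-library values were tested by exact permutation over the 6 libraries (2-sided). Alternatives were TMM factors, DESeq2 1.42.0, other filters and scalings, a replicate block, left-out libraries and narrower membership. The edgeR step was tested on simulated data. Pairs of libraries of a group differed beyond sampling noise (chi-square per degree of freedom 1.32 to 2.38). Figures used matplotlib 3.10.9.

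Named were the regions of 7 gene lists, the 8 highest and 8 lowest changes of share among called regions with 50 or more counts on average and no overlap of groups, the 6 densest of the strongly marked regions, the 3 longest regions and unscaled rises. The regions of let-7i, miR-210, Mir5615-1, Gm34346 and Gm26510, the further regions of Lncpint, Pvt1, Gm8995, 5031425E22Rik and Gm14170, and those of the closing observations lie outside this rule and were chosen after their values were seen. Members and lists were chosen with earlier results of these data known.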

Additional observations from a re-analysis of the deposited data

How the results depend on the processing

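The numbers of rises and falls in share moved most. Against 53 and 53, rises numbered 175 and falls 21 with the DESeq2 Wald test, 188 rises without a count filter, 17 rises among regions of at least 50 counts, 10 rises and 207 falls with scaling on the sparsest 25% of regions, 33 falls with DESeq2 size factors and 35 with TMM factors. These factors moved the median of all regions by log2 0.118 (TMM) and 0.116 (DESeq2 size factors), and the sparse scaling by -0.733. Without 1 library, rises ranged from 22 to 116 and falls from 38 to 58, while 225 to 578 regions were tested. Unscaled rises numbered 22 with the DESeq2 Wald test, 16 without a count filter, and 0 to 2 without 1 library (0 without DMSO replicate 2); the cause was not tested. The share of library counts and the ratio to coding regions reversed without the let-7 cluster and Malat1 (-0.0343 and -0.0327), where the set kept 16.3%; both kept their direction without any 1 library (0.0310 to 0.0524 and 0.0346 to 0.0573) and in the other sets of regions tried. With sparse scaling log2 shares turned to -0.63 for Lncpint, -0.31 for Dleu2, -0.28 for 5031425E22Rik, -0.62 for Mir24-2, -0.23 for Neat1, -0.50 for Mir22hg, -0.27 for Snhg15, -0.14 for Gm8995, -0.20 for Rpl6l and -0.21 for Gm36025. Of these, Lncpint and Mir24-2, not called on library totals, were called lower (edgeR adjusted p = 0.00487 and 0.00150). Mir22hg, called higher on library totals, was also called lower (edgeR adjusted p = 0.00741). A further 10 named regions not called on library totals (7 hosts of small nucleolar RNAs, Mir17hg, Mir670hg and Hotairm1) were called lower.

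The replicate numbers of the labels did not pair the libraries (correlations of deviations 0.00593, -0.0595 and -0.000386 for replicates 1, 2 and 3), and with the replicate block 52 regions rose and 53 fell in share and 425 fell and 1 rose unscaled, with no change of call among the named regions. Depth limits the short regions: 222 of 647 could not be tested on shares.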

Other observations

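Some further regions were read after their values were seen. Lockd, a long non-coding RNA gene 3540 bp from the cell cycle inhibitor gene Cdkn1b, had 3456, 3596 and 4165 counts with DMSO and 455, 436 and 442 with SGC0946 and kept 11.9% (log2 share -0.52 ± 0.05 SE, edgeR adjusted p = 1.6e-13). Oip5os1, whose RNA carries a site for miR-7, kept 13.3% (edgeR adjusted p = 4.4e-06), and AI662270, among the Slfn genes of chromosome 11, kept 15.8% (edgeR adjusted p = 0.385). Gm35908, like Gm36025 on chromosome 14, kept 23.4% (log2 share 0.45 ± 0.10 SE, edgeR adjusted p = 0.000117).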
